A study of Mus musculus with 6 samples.

Results

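The transcripts described here are 10 genes that mark resident macrophages of the marrow and other tissues, chosen by name from the 34745 genes of the deposited count table. They are C1qa, C1qb and C1qc (the chains of complement C1q), Adgre1 (the gene of the F4/80 antigen), Vcam1, Spic, Cd163, Mrc1, Mertk and Axl. RNA was sequenced from monocytic myeloid-derived suppressor cells (M-MDSCs) of C57BL/6 mice, with 3 libraries from WT mice and 3 from Lyz-mTOR mice. In Lyz-mTOR mice, a Cre recombinase driven by the lysozyme gene Lyz2 deletes floxed mTOR in myeloid cells, and their libraries are called mTOR-/- below. The WT mice are described as purchased C57BL/6 animals, and no Cre or floxed allele is described in them. Both groups were grown from bone marrow with GM-CSF and IL-6 and sorted by flow cytometry as CD11b+ Ly6G- Ly6C high cells, although the sample protocol speaks only of fresh sorted cells. The age and sex of the mice are not given in the sources used here, nor whether each library came from a separate mouse, so p-values measure the spread between these libraries. The comparison asks whether cells labelled mTOR-/- carry more or less of the macrophage transcripts than WT cells. In bulk RNA, fewer cells of a type and less RNA per cell cannot be told apart.

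Resident macrophages differ from monocytes in settling in a tissue for long periods and in clearing dead cells there. In the marrow, macrophages with F4/80 and VCAM-1 on their surface sit at the centre of erythroblastic islands, where they take up the nuclei that erythroblasts expel and recycle iron. Spi-C drives the fate of iron-recycling macrophages, CD163 takes up haemoglobin bound to haptoglobin, and the mannose receptor (Mrc1) takes up glycoproteins. MerTK and Axl are receptor tyrosine kinases that bind apoptotic cells through bridging proteins, which are Gas6 for both and also protein S for MerTK. C1q tags dying cells as well as starting the classical complement cascade.

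Total counts were between 12317507 and 12903191 in the mTOR-/- libraries and between 14066578 and 14768126 in the WT libraries. A floor of 3 reads, the limit that a count of 0 allows, was 0.229 to 0.244 CPM (reads relative to the normalized library size) in the mTOR-/- libraries, against 0.205 to 0.213 CPM in WT, for counting error only. Library mTOR-/- replicate 3 stood apart from its group, with correlations of log2 CPM across genes of 0.952 and 0.955 to the other two, against up to 0.967 between groups. It also had 36 genes at 0 that had at least 10 counts in each of the other libraries, where the other libraries had 0 to 6 such genes. Reads on Mtor itself, the floxed gene, numbered 883, 983 and 908 in mTOR-/- replicates 1, 2 and 3 and 980, 875 and 929 in WT replicates 1, 2 and 3, and the groups overlapped (log2 fold change 0.15, adjusted p = 0.442, edgeR). Which exons these reads came from is not in the count table, so the deletion was not checked here. The study itself reports that it verified the loss of mTOR in MDSCs, in a supplementary figure. Lyz2, whose promoter drives the Cre, had 11695 to 14675 reads in the mTOR-/- libraries and 32743 to 57236 in the WT libraries (adjusted p = 0.00255, edgeR). Markers of the sorted cells were present in both groups: Ly6c2 had 891 to 1363 counts in the mTOR-/- libraries and 1691 to 3169 in the WT libraries. Ly6g, the antigen that the sort was meant to leave out, had 139 to 198 counts in the mTOR-/- libraries and 12 to 71 in the WT libraries. Summed over marker lists, mast cell, basophil and eosinophil markers were at 421 to 489 CPM in the mTOR-/- libraries, against 1217 to 1310 CPM in WT, and dendritic cell markers were at 433 to 511 and 254 to 345 CPM. Neutrophil markers were at 3200 to 3566 and 2894 to 3226 CPM, monocytic markers at 2205 to 2379 and 2063 to 2362 CPM, and megakaryocyte markers at 503 to 630 and 395 to 665 CPM. Lymphocyte markers were at 3.01 to 6.11 and 2.77 to 3.96 CPM, with Cd3e, Cd4, Cd8a and Ncr1 at 0 in every library.

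The genes ranged widely in raw reads, which also depend on gene length. Adgre1 had 5253 to 9410 reads, Vcam1 1016 to 1722, Axl 80 to 457 and Mrc1 16 to 97, and the other 6 genes had at most 21 reads in any library. On the deposited scale per gene length (FPKM), Adgre1 was at 169 ± 11.0 (SD, n = 3) in the WT libraries and at 134 ± 18.6 (SD, n = 3) in the mTOR-/- libraries. Vcam1 followed at 9.04 ± 1.66 and 12.9 ± 0.926 FPKM, and Axl at 1.08 ± 0.436 and 3.29 ± 0.938 FPKM (SD, n = 3 each). In the mTOR-/- libraries these levels did not overlap with each other or with that of the next gene, C1qb. In the WT libraries Axl and C1qb, and C1qb and Mrc1, overlapped between libraries. The remaining 7 genes, Mrc1 among them, were under 1 FPKM on average in both groups. Mrc1 was below C1qb in both groups on this scale, and Cd163 was last at 0 in the WT libraries. Adgre1 held 83.8 to 88.2% of all reads on the 10 genes in the WT libraries and 72.1 to 76.7% in the mTOR-/- libraries. The filter on low counts passed 6 genes: Adgre1, Vcam1, Axl, Mrc1, C1qb and Mertk. C1qa, C1qc, Spic and Cd163 did not pass and have no test. A differentially expressed gene (DEG) had to have an adjusted p below 0.05 together with a change of 2-fold or more, by edgeR's quasi-likelihood test. Of the 6 tested genes 1 was a DEG, Axl, where 1.69% of all 12537 tested genes were DEGs (1.04% higher and 0.654% lower in mTOR-/-). By the adjusted p alone it was again Axl of the 6, where 4.04% of all tested genes passed (2.18% higher and 1.87% lower). The groups did not overlap in normalized CPM for 3 of the 6, Axl and Vcam1 (higher in mTOR-/-) and Adgre1 (lower), where 28.4% of all tested genes did not overlap (14.5% higher and 13.9% lower). The members were chosen with earlier results of these data known, so nothing is read from these shares.

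**Figure D1:**
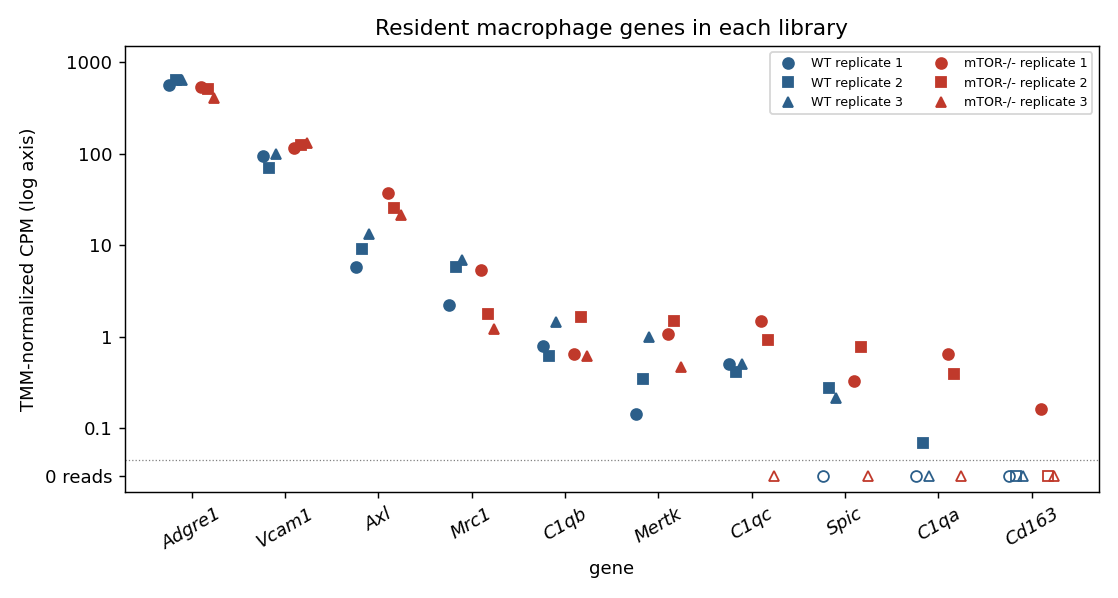
TMM-normalized CPM (log axis) of the 10 resident macrophage genes in each library, WT in blue and mTOR-/- in red, with circles, squares and triangles for replicates 1, 2 and 3. Open symbols on the lowest line are libraries with 0 reads. Adgre1 lies between 401 and 642 CPM, and Cd163 has reads in 1 library.

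C1q is built from A, B and C chains, and macrophages and microglia are its main source. All of its chains were close to the detection floor. C1qa had 8, 5 and 0 reads in mTOR-/- replicates 1, 2 and 3, and 0, 1 and 0 reads in WT replicates 1, 2 and 3. C1qc had 18, 12 and 0 reads in the mTOR-/- libraries, against 7, 6 and 7 in WT. For both chains, mTOR-/- replicates 1 and 2 were above every WT library and mTOR-/- replicate 3 was at 0, so the groups overlapped. C1qb had 8, 21 and 8 reads in the mTOR-/- libraries, against 11, 9 and 20 in WT. These ranges were nearly the same, and the log2 fold change of C1qb was 0.04 (95% confidence interval -1.42 to 1.49, adjusted p = 0.983, edgeR's quasi-likelihood test). Its sign turned negative when mTOR-/- replicate 2 (-0.58), WT replicate 1 (-0.08) or WT replicate 2 (-0.20) was left out. Summed over the chains, the level was 2.77, 2.93 and 0.611 CPM in mTOR-/- replicates 1, 2 and 3, and 1.28, 1.09 and 1.92 CPM in WT replicates 1, 2 and 3. The whole classical complement sensor thus had 8 to 38 reads per library.

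**Figure D2:**
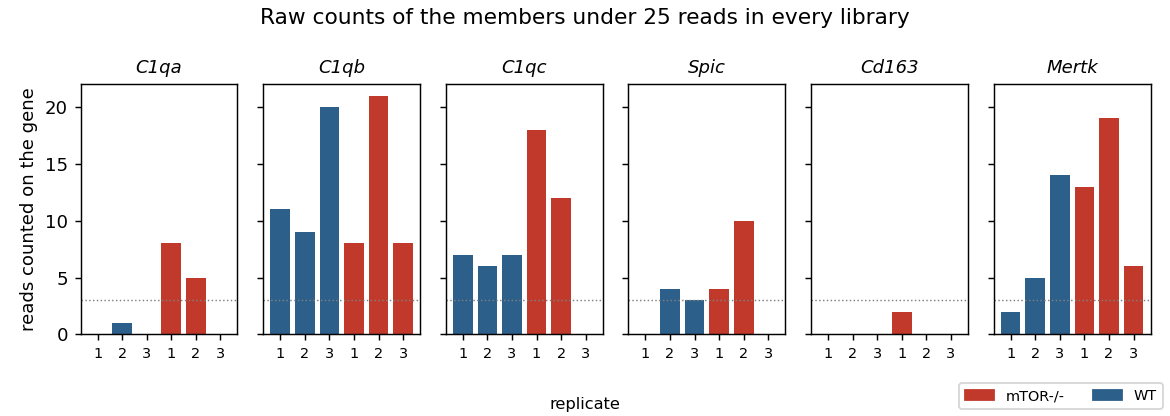
Raw read counts (vertical axis, linear from 0) of the 6 genes with at most 21 reads in every library, for replicates 1, 2 and 3 of WT (blue) and mTOR-/- (red). The dotted line marks 3 reads. C1qa, C1qc and Spic have 0 reads in mTOR-/- replicate 3.

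The C1q genes lie side by side on the reverse strand of chromosome 4 (mm10): C1qb from 136880129 to 136886187, C1qc from 136889804 to 136893065 and C1qa from 136895917 to 136898803. The gaps between them are 3616 and 2851 bases, and the whole cluster spans 18675 bases. Start regions of 300 bases were found for 7 of the 10 genes in the RefSeq table of GRCm38.p6, the others being C1qa, Adgre1 and Vcam1. Those of C1qb (chr4:136886151-136886450, reverse strand) and C1qc (chr4:136892865-136893164, reverse strand) are shown because these neighbouring genes both had few reads. They run from 250 bases before to 50 bases after the start, 5′ to 3′ on the gene's strand. Capitals mark GAGGAA, letters found in binding sites of the myeloid factor PU.1, or GGGCGG, the GC box bound by Sp1, on either strand (TTCCTC and CCGCCC on the other strand).
C1qb: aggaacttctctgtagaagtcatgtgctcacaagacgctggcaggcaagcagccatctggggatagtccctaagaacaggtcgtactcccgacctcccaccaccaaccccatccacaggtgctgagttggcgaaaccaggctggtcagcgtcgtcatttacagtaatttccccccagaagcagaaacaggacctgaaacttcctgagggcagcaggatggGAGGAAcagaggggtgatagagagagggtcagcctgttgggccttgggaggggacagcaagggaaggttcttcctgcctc
C1qc: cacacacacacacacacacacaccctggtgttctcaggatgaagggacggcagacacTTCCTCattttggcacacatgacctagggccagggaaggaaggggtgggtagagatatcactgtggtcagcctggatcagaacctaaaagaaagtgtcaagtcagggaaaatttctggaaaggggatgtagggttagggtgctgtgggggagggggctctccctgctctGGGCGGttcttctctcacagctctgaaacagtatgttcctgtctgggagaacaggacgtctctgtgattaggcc
GAGGAA was found once in each of them, and GGGCGG once in C1qc and not in C1qb. Among all 32851 start regions of the table, 28.3% held GAGGAA and 35.7% held GGGCGG, so that both are common letters in windows of this length.

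Some other components of the classical cascade had more reads than C1q. C1ra, a protease of the C1 complex, had 494, 493 and 415 reads in the mTOR-/- libraries, against 231, 279 and 292 in WT. The groups did not overlap, with a difference of 0.97 on the log2 scale (standard error 0.16, adjusted p = 0.0111, edgeR), just short of 2-fold. C1s1, its partner protease, had 93, 46 and 44 reads against 27, 41 and 34 (log2 fold change 1.02, standard error 0.43, adjusted p = 0.214, edgeR). Cd55, which protects the cell's own surface from complement, had 168, 196 and 153 reads in the mTOR-/- libraries and 312 to 364 in the WT libraries (log2 fold change -0.82, standard error 0.17, adjusted p = 0.0291, edgeR). C3, the protein on which the pathways converge, had 7262 to 10577 reads in the mTOR-/- libraries and 8304 to 9667 in the WT libraries (log2 fold change 0.11, adjusted p = 0.719, edgeR). Of 15 tested genes of this list, 0 were DEGs by edgeR's quasi-likelihood test, by edgeR's exact test and by DESeq2. Over all tested genes, 1.69% were DEGs by the quasi-likelihood test. At an unadjusted p under 0.05, 2 were higher and 1 was lower, beside 1464 and 1193 of all 12537 tested genes. With the adjusted p alone C1ra rose and Cd55 fell, where 4.04% of all tested genes passed. C5ar1, a receptor of the C5a fragment, was a DEG without mTOR-/- replicate 2, and C1ra was one without mTOR-/- replicate 3 and without WT replicate 3. Calr, Cd93 and Cfp, with C3 the genes of the list with the most reads, did not pass (adjusted p = 0.367, 0.666 and 0.983, edgeR). The median log2 fold change of the list was -0.0032, beside 0.0049 over all tested genes. Cfd, Serping1 and C1s2 were at 0 in every library. C1ra, C1s1, Cd55, C5ar1 and the genes at 0 were named after their values were seen.

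Spic and Cd163, the markers of iron-recycling macrophages, were all but absent. Spic (chromosome 10, 88674772 to 88685015) had 4, 10 and 0 reads in the mTOR-/- libraries, against 0, 4 and 3 in WT. Cd163 (chromosome 6, 124304656 to 124330527) had 2 reads in mTOR-/- replicate 1 and 0 in the other 5 libraries, each of which allows a level of up to 0.205 to 0.231 CPM. No difference between groups was detectable at this depth for either gene. Siglec1, which encodes the sialic acid receptor CD169 of island macrophages, had 10, 1 and 0 reads in the mTOR-/- libraries, against 0, 5 and 2 in WT. Genes of haem and iron handling that other myeloid cells share were abundant. Hmox1, the haem-degrading oxygenase, had 12461, 10112 and 10995 reads in the mTOR-/- libraries, against 21299, 22209 and 22461 in WT (log2 fold change -0.81, standard error 0.12, adjusted p = 0.00642, edgeR). Every mTOR-/- library was below every WT library. Ftl1, the ferritin light chain, fell by 0.83 on the log2 scale (adjusted p = 0.0370), and Slc48a1, the haem exporter of the phagolysosome, fell by 0.41 (adjusted p = 0.0407, edgeR for both). Slc40a1, which encodes the iron exporter ferroportin, had a log2 fold change of -0.12 (adjusted p = 0.552, edgeR). Fth1, the ferritin heavy chain, had one of -0.26 (adjusted p = 0.353, edgeR). None of these passed 2-fold. Of 20 tested genes of the erythroblast island and haem list, 1 was a DEG, Itgad (higher), where 1.69% of all tested genes were DEGs. Itgad passed the filter on low counts through the mTOR-/- libraries alone, so nothing is read from its call. With the adjusted p alone, Itgad was higher and 4 genes were lower, where 2.18% of all tested genes were higher and 1.87% lower. The median log2 fold change of the list was -0.18. Erythroid markers summed to 2.47 to 3.82 CPM in the mTOR-/- libraries, against 6.68 to 11.9 CPM in WT. Of 8 genes 2 were tested, both lower in mTOR-/- without overlap, where 13.9% of all tested genes were. Neither was a DEG, but Hbb-bt was one without mTOR-/- replicate 3. Slc4a1 was at 0 in every library but WT replicate 2, where it had 1 read. The part of erythroid cells in the haem and iron values was not tested. Siglec1, Slc40a1 and Slc48a1 were named after their values were seen.

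Adgre1 encodes the F4/80 antigen, an adhesion receptor of mature macrophages that monocytes also carry at a lower level. Per length it had the highest level of the 10 genes in both groups. Adgre1 (chromosome 17, 57358686 to 57483529) was at 532, 510 and 401 CPM in mTOR-/- replicates 1, 2 and 3 and at 563, 642 and 636 CPM in WT replicates 1, 2 and 3. The groups did not overlap. They differed by -0.35 on the log2 scale (standard error 0.12, adjusted p = 0.145, edgeR's quasi-likelihood test), with a 95% confidence interval of -0.62 to -0.08. It did not pass the threshold. Without mTOR-/- replicate 3, the lowest library, the log2 fold change was -0.24 (adjusted p = 0.178, edgeR).

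VCAM-1 is the adhesion molecule by which island macrophages and stroma hold erythroblasts and progenitors that carry the integrin VLA-4. Vcam1 (chromosome 3, 116109949 to 116129688) was at 116, 122 and 132 CPM in mTOR-/- replicates 1, 2 and 3 and at 94.7, 69.3 and 99.5 CPM in WT replicates 1, 2 and 3. Every mTOR-/- library was above every WT library. The groups differed by 0.49 on the log2 scale (standard error 0.14, adjusted p = 0.0888, edgeR's quasi-likelihood test), with a 95% confidence interval of 0.18 to 0.80, which lies below 2-fold. The adjusted p was 0.0251 in DESeq2 and 0.0407 in edgeR's exact test, and the size of the change was the same. Markers of stroma and endothelium, which can also carry VCAM-1, were at 167 to 217 CPM in the mTOR-/- libraries, against 264 to 276 CPM in WT. Of the 12 genes 5 were tested and none was a DEG, and Cxcl12, Dcn, Lum and Col3a1 were at 0 in every library. Pecam1, which myeloid cells also express, held 1521 to 3205 of these reads per library. The part of such cells in the level of Vcam1 was not tested.

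Among the integrins that bind VCAM-1, Itgad had reads almost only in the mTOR-/- libraries. It passed the filter on low counts through them alone, so nothing is read from its call. Itgad encodes the alpha chain of CD11d/CD18, an integrin of splenic red pulp macrophages. Itgad had 91, 96 and 143 reads in the mTOR-/- libraries, against 0, 4 and 0 in WT (log2 fold change 6.39, standard error 0.74, adjusted p = 0.00236, edgeR), or 9.83 without WT replicate 2, which held all 4 WT reads and left WT at 0, so that this value depends on the prior count. Itga4 and Itgb1, the chains of VLA-4, had log2 fold changes of -0.16 and -0.17 (adjusted p = 0.454 and 0.426, edgeR). Itgb2, the beta chain of CD11d/CD18, had one of 0.01 (adjusted p = 0.971, edgeR). Itgb7, which pairs with Itga4, had 1144, 1513 and 1133 reads in the mTOR-/- libraries, against 2507, 2730 and 2544 in WT (log2 fold change -0.88, standard error 0.12, adjusted p = 0.00484, edgeR). Itga4 and Itgb7 were named after their values were seen.

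Mrc1 is the mannose receptor CD206, used as a label of tissue macrophages and of alternatively activated cells. Mrc1 (chromosome 2, 14229392 to 14332057) had 65, 23 and 16 reads in mTOR-/- replicates 1, 2 and 3 and 31, 85 and 97 reads in WT replicates 1, 2 and 3. The level was 5.29, 1.77 and 1.22 CPM in the mTOR-/- libraries, against 2.20, 5.80 and 6.90 CPM in WT. One library in each group went against its group, mTOR-/- replicate 1 being high and WT replicate 1 low. The log2 fold change was -0.85 (95% confidence interval -2.21 to 0.51, adjusted p = 0.455, edgeR), and lay between -1.73 and -0.50 with 1 library left out at a time. Other genes that often accompany Mrc1 were mixed in direction. Clec7a, the beta-glucan receptor, which was named after its values were seen, had 743 to 1112 reads in the mTOR-/- libraries and 1667 to 2213 in the WT libraries (log2 fold change -0.86, adjusted p = 0.0262, edgeR). Clec10a, another lectin of alternatively activated cells, had 1620, 1149 and 2001 reads in the mTOR-/- libraries, against 498, 817 and 597 in WT (log2 fold change 1.48, standard error 0.22, adjusted p = 0.00724, edgeR). Retnla, a secreted product induced by IL-4, had 254, 186 and 159 reads against 69, 86 and 105 (log2 fold change 1.37, standard error 0.26, adjusted p = 0.0233, edgeR). Its adjusted p was 0.0755 without mTOR-/- replicate 1, and 0.103, 0.0885 and 0.0531 without WT replicates 1, 2 and 3. Chil3, a chitinase-like protein, rose by less than 2-fold (log2 fold change 0.50, standard error 0.10, adjusted p = 0.0298, edgeR). Il4ra, the receptor chain for IL-4, had a log2 fold change of -0.12 (adjusted p = 0.543, edgeR). Arg1, which was named after its values were seen, had 2636 to 2986 reads in the mTOR-/- libraries and 1501 to 3213 in the WT libraries. Of 16 tested genes that work with VCAM-1 or accompany the mannose receptor, 3 were DEGs (Itgad, Clec10a and Retnla), all higher, beside 1.69% of all tested genes. Of these, Itgad passed the filter on low counts through the mTOR-/- libraries alone. By the adjusted p alone 4 were higher and 2 lower, the latter being Itgb7 and Clec7a, where 2.18% of all tested genes were higher and 1.87% lower. Clec7a was a DEG without mTOR-/- replicate 1, and Itgb7 without mTOR-/- replicate 2.

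**Figure D3:**
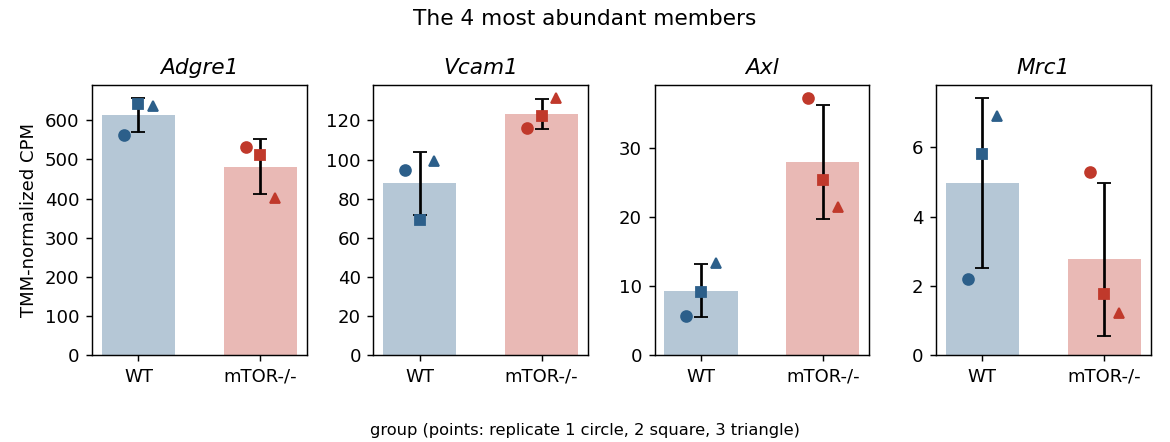
TMM-normalized CPM (linear axes from 0) of Adgre1, Vcam1, Axl and Mrc1. Bars are group means, error bars are the SD of 3 libraries, and points are replicates 1 (circle), 2 (square) and 3 (triangle). The groups do not overlap for Adgre1, Vcam1 and Axl, and overlap for Mrc1.

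Axl was the only one of the tested genes that passed the thresholds. Axl (chromosome 7, 25757273 to 25788705, reverse strand) had 457, 328 and 280 reads in mTOR-/- replicates 1, 2 and 3 and 80, 133 and 187 reads in WT replicates 1, 2 and 3. The level was 37.2, 25.3 and 21.4 CPM in the mTOR-/- libraries, against 5.68, 9.08 and 13.3 CPM in WT. The lowest mTOR-/- library was above the highest WT library. Axl was 2.99-fold higher in mTOR-/-, which is 1.58 on the log2 scale (standard error 0.31, 95% confidence interval 0.88 to 2.28, adjusted p = 0.0259, edgeR's quasi-likelihood test). The call depended on single libraries. It was lost without mTOR-/- replicate 1 (log2 fold change 1.32, adjusted p = 0.0858), without WT replicate 1 (1.31, adjusted p = 0.0816) and without WT replicate 2 (1.56, adjusted p = 0.0976, edgeR for all). Without mTOR-/- replicate 3, the library that stood apart, the log2 fold change was 1.73 (adjusted p = 0.0241, edgeR). The summed dendritic cell markers were also higher in mTOR-/-. Of the 11 genes 8 were tested, 6 with a positive and 2 with a negative log2 fold change (Clec9a at -0.39 and Flt3 at -0.46). Only Ccr7 was a DEG (higher), where 1.04% of all tested genes were. The call of Ccr7 was lost in each of the 6 fits that left out 1 library. Ccr7, Irf4, Itgax and Dpp4 were higher without overlap, where 14.5% of all tested genes were, but Itgax and Dpp4 did not pass (adjusted p = 0.0987 and 0.0507, edgeR). Siglech was at 0 in every library and Xcr1 had reads in mTOR-/- replicate 3 only. Their part in the level of Axl was not tested.

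Mertk, the sister receptor of Axl and the one more typical of resident macrophages, stayed near the floor. Mertk (chromosome 2, 128698956 to 128802894) had 13, 19 and 6 reads in mTOR-/- replicates 1, 2 and 3 and 2, 5 and 14 reads in WT replicates 1, 2 and 3. The groups overlapped, and the log2 fold change of 1.00 had a 95% confidence interval of -0.80 to 2.80 (adjusted p = 0.509, edgeR). Tyro3, the remaining receptor of this family, had 39 to 55 reads in the mTOR-/- libraries and 48 to 62 in the WT libraries (log2 fold change -0.05, standard error 0.33, adjusted p = 0.952, edgeR). Per kilobase of the longest GENCODE transcript, Axl was at 6.56 ± 1.93 CPM and Mertk at 0.231 ± 0.118 CPM in the mTOR-/- libraries, and at 2.19 ± 0.896 and 0.115 ± 0.104 CPM in the WT libraries (SD, n = 3 each). Of the ligands of this receptor family, Gas6 had 58 to 95 reads in the mTOR-/- libraries and 83 to 105 in the WT libraries (log2 fold change -0.16, adjusted p = 0.791, edgeR). Pros1, which encodes protein S, a ligand of MerTK and not of Axl, had 80, 70 and 15 reads against 28, 59 and 46 (log2 fold change 0.49, adjusted p = 0.673, edgeR). Tyro3, Gas6 and Pros1 were named for their roles after their values were seen.

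The start regions of Axl (chr7:25788684-25788983, reverse strand) and Mertk (chr2:128698665-128698964, forward strand) are shown, Axl being a DEG and Mertk near the floor. Whether the receptors differed in their change between groups was not tested. Both regions come from the same RefSeq table of GRCm38.p6, with the same letters in capitals.
Axl: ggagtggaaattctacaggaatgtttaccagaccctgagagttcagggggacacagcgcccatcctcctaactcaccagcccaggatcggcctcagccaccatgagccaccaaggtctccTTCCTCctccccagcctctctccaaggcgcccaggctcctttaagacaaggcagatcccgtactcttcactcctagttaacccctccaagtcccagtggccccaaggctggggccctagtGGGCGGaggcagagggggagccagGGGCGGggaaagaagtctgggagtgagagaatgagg
Mertk: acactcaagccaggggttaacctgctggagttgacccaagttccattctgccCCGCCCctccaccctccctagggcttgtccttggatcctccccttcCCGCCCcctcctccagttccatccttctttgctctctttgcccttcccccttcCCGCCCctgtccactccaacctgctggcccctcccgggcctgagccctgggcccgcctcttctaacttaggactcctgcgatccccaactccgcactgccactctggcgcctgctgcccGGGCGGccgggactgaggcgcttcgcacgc
GGGCGG was found 2 times in Axl and 4 times in Mertk, and GAGGAA once in Axl and not in Mertk. The windows held 60.3% and 66.0% G and C, beside a median of 52.7% over all start regions of the table. The TATA box (TATAAA), the AP-1 motif (TGACTCA) and the core of the interferon-stimulated response element, also searched on both strands, were in none of the 7 windows, and 13.6%, 5.2% and 3.44% of all start regions held them. Each match is a description of letters, not a binding site.

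Around these receptors, several genes of apoptotic cell clearance changed. Mfge8, a secreted bridge between phosphatidylserine and integrins of the alpha V class, had 1168, 957 and 1270 reads in the mTOR-/- libraries, against 275, 522 and 551 in WT (log2 fold change 1.49, standard error 0.24, adjusted p = 0.0101, edgeR). Dock1, which with Elmo proteins activates Rac for engulfment, had 352, 371 and 395 reads against 161, 144 and 182 (log2 fold change 1.35, standard error 0.16, adjusted p = 0.00246, edgeR). Neither gene overlapped between groups. Itgb3, the integrin chain that pairs with alpha V, moved the other way, with 948, 403 and 347 reads in the mTOR-/- libraries and 2323 to 2530 in the WT libraries. On the log2 scale Itgb3 was at -1.92 relative to WT (standard error 0.34, adjusted p = 0.0162, edgeR), and at -2.57 without mTOR-/- replicate 1. The adjusted p was 0.0610, 0.0582 and 0.0577 without WT replicates 1, 2 and 3. Itgb3 is also a megakaryocyte and mast cell gene, and the mast cell, basophil and eosinophil markers were lower in the mTOR-/- libraries: of 9 tested, 3 were DEGs, all lower, where 0.654% of all tested genes were, Cpa3 with 1360 to 2009 reads against 9250 to 10799. The part of such cells in the level of Itgb3 was not tested. Lrp1, a scavenger receptor, had a log2 fold change of -0.60 (adjusted p = 0.0235) and Stab1, a receptor of phosphatidylserine on tissue macrophages named after its values were seen, one of 0.77 (adjusted p = 0.0397, edgeR for both). Cd300lf, Rac1 and Anxa5 did not pass (adjusted p = 0.205, 0.557 and 0.228, edgeR). Of 22 tested genes of this list, 2 rose and 1 fell past the thresholds, where 1.04% of all tested genes rose and 0.654% fell. The median log2 fold change of the list was -0.08. The macrophage phosphatidylserine receptors Timd4 and Stab2 were at 0 in every library.

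**Figure D4:**
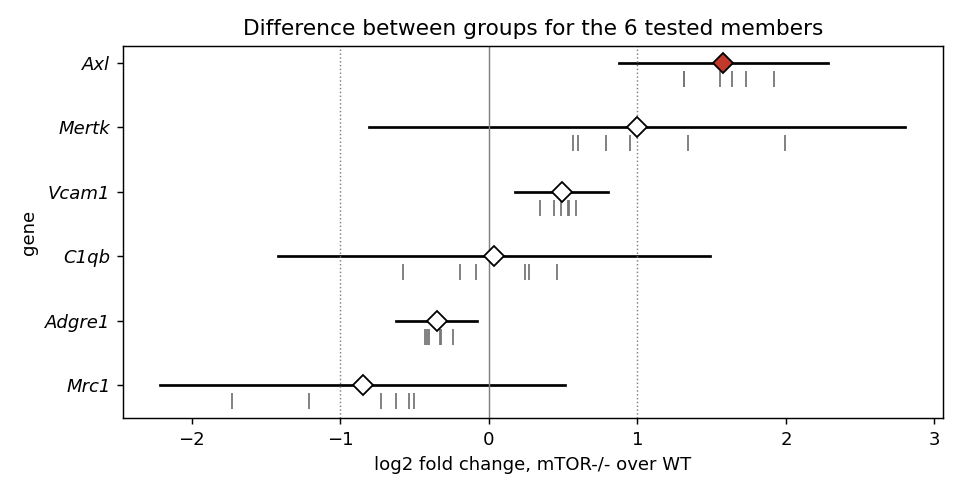
Log2 fold change, mTOR-/- over WT, of the 6 tested genes (diamonds) with 95% confidence intervals (lines), and the values with 1 library left out at a time (grey ticks). Dotted lines mark 2-fold. Axl (red) is the DEG, at 1.58, and the intervals of C1qb, Mertk and Mrc1 include 0.

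The wider list of macrophage identity genes was mixed in direction and mostly lacked the markers of settled macrophages. Timd4, Marco and Vsig4 were at 0 in every library, and Siglec1, Cd5l, Fcna, Folr2, Slco2b1 and Cx3cr1 had at most 10 reads in any library. Of 25 tested genes, 2 were DEGs, both higher in mTOR-/-, where 1.69% of all tested genes were DEGs (1.04% higher). Without mTOR-/- replicate 2, 4 were DEGs, Cd14 among them. Clec4f, a lectin known from liver macrophages, had 86, 75 and 179 reads in the mTOR-/- libraries and none in WT, which makes it at least 41.9-fold higher when a floor of 3 reads stands in for each WT library. The other DEG was Itgad, and both passed the filter on low counts through the mTOR-/- libraries alone. Csf1r, the receptor for M-CSF, rose by less than 2-fold (log2 fold change 0.50, standard error 0.08, adjusted p = 0.0136, edgeR), as did Cd14, a co-receptor for endotoxin (0.95, standard error 0.10, adjusted p = 0.00128, edgeR). Gpnmb and Ctsb, both linked to lysosomes, fell by 0.70 and 0.68 on the log2 scale (adjusted p = 0.0383 and 0.0183, edgeR). Ctsd and Lgals3 had log2 fold changes of -0.46 and -0.46 (adjusted p = 0.125 and 0.0557, edgeR). Nr1h3, which encodes the lipid sensor LXR alpha, had 11, 14 and 0 reads in the mTOR-/- libraries, against 16, 10 and 23 in WT. The median log2 fold change of the list was 0.03. Csf1r, Cd14, Nr1h3 and the markers near 0 were named after their values were seen.

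**Figure D5:**
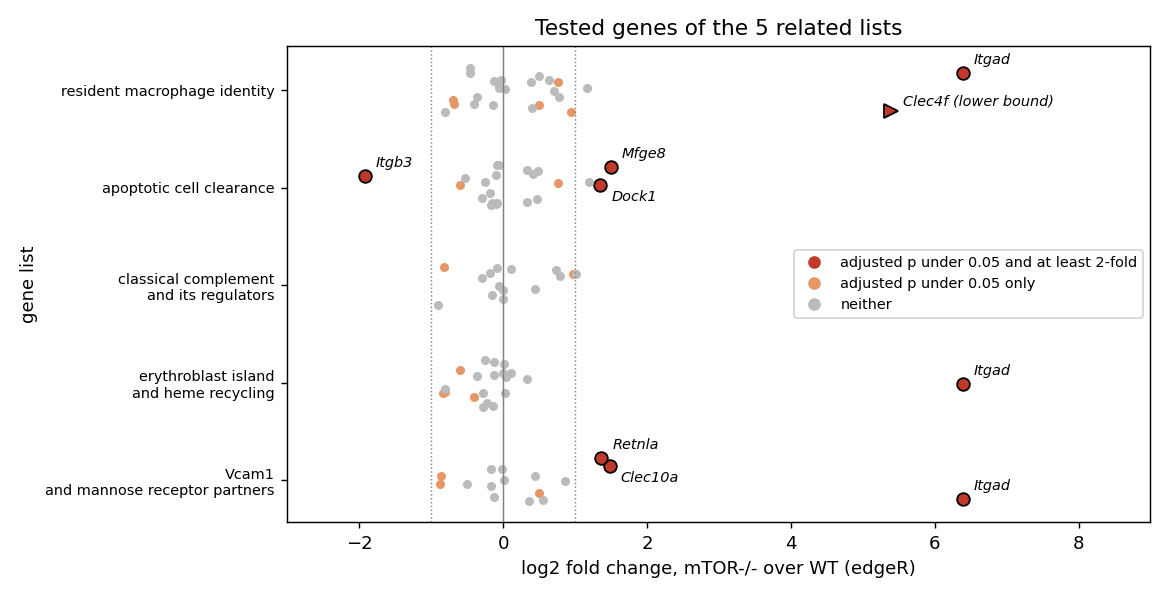
Log2 fold change, mTOR-/- over WT, of each tested gene in 5 related lists (rows), with vertical scatter for visibility only. DEGs are red and named, and Clec4f is drawn at its lower bound because it had 0 reads in each WT library. Itgad belongs to 3 of the lists and is drawn at its fitted value, which rests on 4 reads in WT replicate 2.

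Over the 5 related lists, 123 gene rows were in the table, 92 were tested and 7 were DEGs, 6 of them higher in mTOR-/-, where 1.69% of all tested genes were DEGs (1.04% higher and 0.654% lower). Several genes belong to more than one list. Among the DEGs that were higher, Clec4f and Itgad passed the filter on low counts through the mTOR-/- libraries alone.

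The genes differed in how they varied from library to library. As a description over 6 libraries that share the group difference, the Pearson correlation of log2 CPM was 0.83 between Adgre1 and Mrc1, -0.81 between Adgre1 and Vcam1, 0.81 between Mertk and Axl and 0.71 between Vcam1 and Axl. That of C1qb with the other tested genes lay between 0.02 and 0.61. Among 10620 genes with a mean of at least 50 counts, the profile most like that of Axl was that of H2-DMa (r = 0.994), followed by Clec5a and Retnla (0.987 and 0.986). Those most like Vcam1 were Ifngr1, 2900097C17Rik and Klhl36 (r = 0.996, 0.994 and 0.989), and those most like Adgre1 were Slpi, Rala and Atp6v0d1 (r = 0.997, 0.996 and 0.996). For Mrc1 they were Fam117b, Acp5 and Plau, and for the mean profile of the tested C1q chains, of which C1qb was the only one, they were Nras, Serpinb2 and Stx18. C1qb averaged 12.8 counts, below the minimum of 50 used for the other members, so its matches rest on few reads. At a lower limit, an r of at least 0.95, there were 182 genes for Adgre1 and 46 for Axl. The named genes have the highest r of many over only 6 libraries, so values near 1 can arise by selection alone. No shared regulation is read from them.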

How the data were processed

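RNA of M-MDSCs was measured in 6 libraries, and groups came from the sample titles. The study's methods give alignment to mm10 with Bowtie2 and counting with HTSeq. The submitters' processing notes list HISAT2 2.0.4, StringTie 1.3.0, GRCm38.p4 and mm9 with no role. The strand setting is not given in the sources used here. The authors deposited whole-number counts per gene, which were tested, and FPKM, which served only to order genes by level. The deposited FPKM equal counts over the total count and a gene length that, for the C1q chains and Mrc1, was the summed length of all GENCODE M21 transcripts (within 0.001 kb), and it was up to 2.36 times the longest transcript (Vcam1). An added ordering, chosen after the data were examined, therefore used CPM per kilobase of the longest transcript. Of 36 per-sample columns in the files, 24 repeat the same values and were not used. The columns of the authors' own comparison (group means, fold changes, p-values) were not used either.

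Counts were analysed in R 4.3.3 with edgeR 4.0.16. Genes passing filterByExpr (minimum count of 10, minimum total of 15) numbered 12537. Normalization was by TMM, and the quasi-likelihood F test compared the groups without a block, with Benjamini-Hochberg adjustment over all tested genes. Log2 CPM used a prior count of 2. Standard errors and 95% intervals come from the same fit. Floors are 3 reads per library and cover counting error only. The steps were tested on simulated data. Alternatives were normalization by RLE or by the upper quartile, DESeq2 1.42.0, the exact test of edgeR, calls by the adjusted p alone, testing unfiltered genes or those averaging at least 10 counts, omitting single libraries, and a replicate block. Genes, lists and tests were chosen with earlier results of these data known. Named genes are the 10 members, the DEGs of each list (up to 8), up to 4 other genes per list with the highest mean counts, Mtor and Lyz2 as checks of the labels, and markers. The 3 genes most like each well-measured member, and those most like C1qb, which had few reads, are also named. Genes named outside this rule are marked in the text. Positions are those of the deposited table; 9 of the 10 match GENCODE M21 on GRCm38. A gene antisense to Vcam1, Gm43109, overlaps its exons and had 0 reads. Itgam and C1s2 are listed under 2 gene identifiers each. Some genes and one searched motif are not reported here.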

Additional observations from a re-analysis of the deposited data

How the results depend on the processing

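The number of DEGs over all tested genes was 212 (130 up, 82 down). It was 357 (220 and 137) with DESeq2, 386 (244 and 142) with edgeR's exact test and 507 (273 and 234) with no fold threshold, and lay between 114 and 229 over the 6 fits that omit 1 library (61 to 132 up, 51 to 97 down). Of the 10 genes, 1 was called, Axl, and 0 or 1 in the fits that left out 1 library. The related lists held 7 DEGs, 21 with no fold threshold and 5 to 11 with 1 library left out. The 2 most different fits of these left out WT replicate 2 (5) and mTOR-/- replicate 2 (11). Among the tested members, list DEGs and label checks refitted under these alternatives, C1qb (0.04) alone changed sign, with values from -0.58 to 0.46 when 1 library was left out. Replicate numbers shared by the groups did not pair the libraries: deviations of libraries with the same number correlated at -0.08, -0.03 and -0.06. With the replicate number as a block, 0 of the 10 genes and 164 genes in all were called, Axl had an adjusted p of 0.0514 (edgeR) and C1qb a log2 fold change of -0.017. Axl was called under RLE and upper-quartile normalization, DESeq2, edgeR's exact test and both other filters, with log2 fold changes from 1.57 to 1.58. By CPM per kilobase of the longest transcript, Mrc1 moved from rank 5 to 4 in the WT libraries and from 5 to 6 in the mTOR-/- libraries, exchanging places with C1qb and C1qc. Fitted without a filter, C1qa, C1qc, Spic and Cd163 had adjusted p of 0.42 to 0.78 (edgeR). At 0 to 18 reads per library, depth limits what can be said of these 4 genes.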
